A study of Mus musculus with 6 samples.

Results

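The homing and egress receptors are 9 genes whose proteins steer lymphocytes into, within and out of the spleen and lymph nodes: the chemokine receptors Cxcr4, Cxcr5, Ccr6, Ccr7 and Cxcr3, the atypical chemokine receptor Ackr3, the sphingosine 1-phosphate (S1P) receptors S1pr1 and S1pr4, and the oxysterol receptor Gpr183. They were chosen by symbol among the 54232 genes of the deposited count table, and all 9 were found there once. Their RNA was measured in leukaemic B cells sorted from the spleens of mice with transplanted chronic lymphocytic leukaemia (CLL), by sequencing the 3′ ends of transcripts with unique molecular identifiers (UMIs). The study asked how inhibition of casein kinase 1 delta and epsilon (CK1) acts on this leukaemia.

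All 6 samples came from wild-type C57BL/6J mice that had been injected into the peritoneum with splenic mononuclear cells of terminally ill Eµ-TCL1 mice, of which about 99% were CLL cells. In that model the human TCL1 oncogene is driven in B cells, and a leukaemia of CD5-positive, CD45R-low B cells develops. The 3 libraries called CK1i came from mice given the CK1 inhibitor PF-670462 by mouth at 50 mg/kg, dissolved in 10% kolliphor in PBS, and the 3 libraries called CTRL from mice given that vehicle alone. Dosing began 5 days after the transfer, followed a cycle of 5 days on and 2 days off for 8 weeks, and stopped once the vehicle mice had at least 60% CLL cells among blood leukocytes. Recipients kept their own immune cells and spleen stroma, and the labels do not say how many donor leukaemias were used. All 6 libraries carry batch label 1. Each sample title carries a different number, but the labels do not say whether these numbers stand for separate mice. The p-values here therefore cover only the scatter among these 6 samples, part of which may be technical.

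Chemokine receptors are G protein-coupled receptors, proteins with a bundle of membrane-spanning helices that read a gradient of a secreted ligand and pass the signal to inhibitory G proteins inside the cell. In the spleen, CXCL13 made by follicular stroma draws cells with CXCR5 into B-cell follicles, CCL19 and CCL21 draw cells with CCR7 to the T-cell zone, and CXCL12 holds cells with CXCR4 in contact with stroma. GPR183 (also called EBI2) reads oxysterols made by stroma at the edge of follicles, and S1PR1 reads the high S1P of blood and lymph and drives egress. In CLL these receptors are known for the part they play in lodging leukaemic cells in protective niches.

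The 9 receptors share a stretch at the inner end of the third membrane helix, where the receptor meets its G protein. It is shown because it makes the members readable as a family and shows where Ackr3 and the lipid receptors differ from the other chemokine receptors. Each line gives 36 coding bases on the gene's own strand, from GENCODE M21 transcripts on GRCm38, all inside 1 coding exon, and the capitals mark the 3 codons of the receptor's Asp-Arg-Tyr type of triplet.
Cxcr4, chr1:128589494-128589529, minus strand: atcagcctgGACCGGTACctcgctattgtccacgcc
Cxcr5, chr9:44513891-44513926, minus strand: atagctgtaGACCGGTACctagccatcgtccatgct
Ccr6, chr17:8256355-8256390, plus strand: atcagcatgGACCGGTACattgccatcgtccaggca
Ccr7, chr11:99145612-99145647, minus strand: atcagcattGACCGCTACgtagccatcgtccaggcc
Cxcr3, chrX:101732590-101732625, minus strand: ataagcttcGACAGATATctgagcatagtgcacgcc
Ackr3, chr1:90214232-90214267, plus strand: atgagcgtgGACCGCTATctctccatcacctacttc
S1pr1, chr3:115712497-115712532, minus strand: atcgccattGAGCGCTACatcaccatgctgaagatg
S1pr4, chr10:81499180-81499215, minus strand: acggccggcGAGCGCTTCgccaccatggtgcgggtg
Gpr183, chr14:121954712-121954747, minus strand: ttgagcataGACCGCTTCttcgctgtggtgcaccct

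Translated, the triplet is Asp-Arg-Tyr in all 6 chemokine receptors. In Cxcr4 and Cxcr5 it is followed by Leu-Ala-Ile-Val, in Ccr6 by Ile-Ala-Ile-Val, in Ccr7 by Val-Ala-Ile-Val and in Cxcr3 by Leu-Ser-Ile-Val. Ackr3, which binds CXCL12 but signals through arrestins rather than G proteins, keeps the triplet and has Leu-Ser-Ile-Thr after it. The lipid receptors depart from the triplet itself: S1pr1 has Glu-Arg-Tyr, S1pr4 has Glu-Arg-Phe and Gpr183 has Asp-Arg-Phe. The triplet begins between residue 124, in the 357-residue Gpr183 protein, and residue 153, in the 378-residue Ccr7 protein.

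The libraries held 2472064 to 3105137 counts, so each count stood for 0.322 to 0.405 CPM (counts on a common scale that removes library size), and 14339 to 14836 genes had a count. The 7 listed B-cell and CLL markers summed to 4957 to 5317 CPM in CK1i and 4975 to 5078 CPM in CTRL. Of these 7, 2 had a positive and 5 a negative fold change, and 0 were called. The groups were apart for 2 of them, both lower in CK1i (9.70% of all tested genes were apart). The B-cell marker Cd79b was at 663 to 756 CPM, while 7 of the 8 T-cell markers, Cd3e among them with 6 counts in all, did not pass the filter on low counts. The other T-cell marker, Lck, which CLL cells also express, lay at 104 to 153 CPM. Summed markers were at most 4.61 CPM for monocytes and macrophages, 3.29 CPM for neutrophils, 1.63 CPM for dendritic cells, 1.30 CPM for NK cells and 2.34 CPM for erythroid cells, while stroma and endothelium reached 7.68 CPM. Plasma-cell genes summed to 793 to 1755 CPM in CK1i and 1401 to 2231 CPM in CTRL, of which Jchain made up 282 to 1348 CPM, and their part in the receptor levels was not tested. With edgeR's quasi-likelihood test, 0 of 10067 tested genes passed an adjusted p of 0.05 (a background of 0%), the smallest adjusted p was 0.235, and 467 genes (4.64%) had an unadjusted p under 0.05. DESeq2 called 8 genes and limma-voom 0, with 0 of the receptors among them.

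RNA of 7 of the 9 receptors was plentiful in the leukaemic cells, and that of Ccr6 and Cxcr3 was scarce. S1pr1 was the most abundant, with a mean of 155 CPM over the 6 libraries, ahead of Cxcr5 at 129 CPM and Cxcr4 at 84.4 CPM. Ccr7 followed at 72.4 CPM, then Ackr3 at 58.6 CPM, Gpr183 at 58.1 CPM and S1pr4 at 52.2 CPM. Ccr6 averaged 1.85 CPM and Cxcr3 0.22 CPM. Because reads were taken from the 3′ ends of transcripts, so that longer transcripts do not yield more of them, these levels were not divided by transcript length. The scale of a gene may still depend on how its 3′ end is annotated, which was not tested. Cd79a was listed at 8.88 to 17.6 CPM and its partner Cd79b at 663 to 756 CPM, a gap whose reason was not tested either. A low count thus does not show that a receptor is absent, and the order of receptors is one of listed counts.

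**Figure D1:**
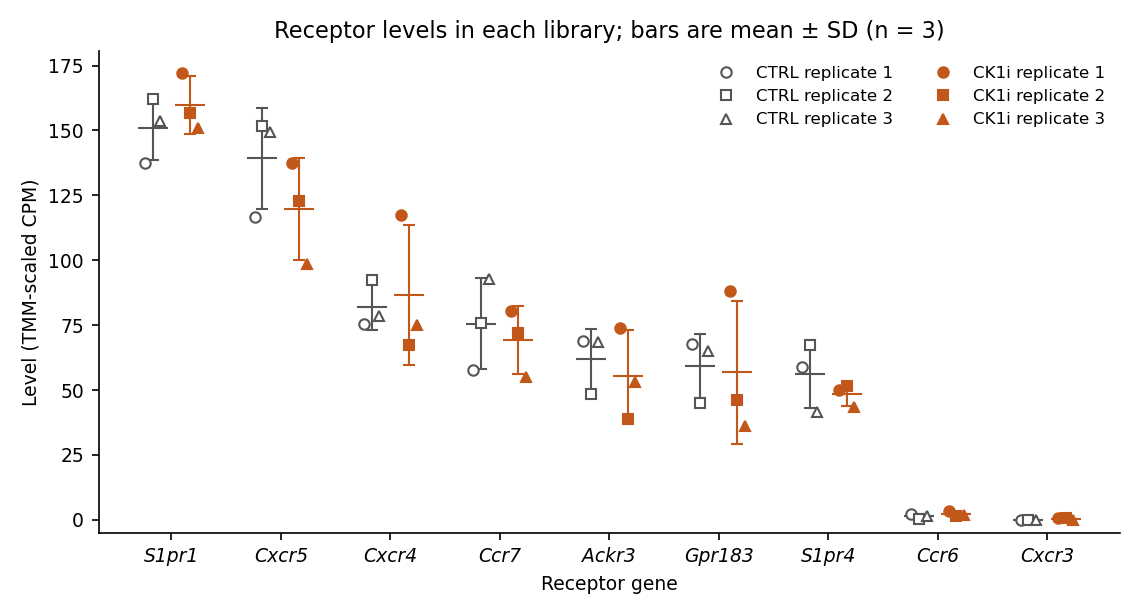
Level of each receptor gene (TMM-scaled CPM, linear axis) in every library, open grey symbols for CTRL and filled orange symbols for CK1i, with the mean and SD of the 3 libraries of each group. S1pr1 and Cxcr5 lie highest, Ccr6 and Cxcr3 lie at the bottom, and for each of the 7 genes that passed the filter the groups overlap.

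The plot of levels by library shows how much of that order held in single libraries. S1pr1 was above Cxcr5, and Cxcr5 above Cxcr4, in 6 of 6 libraries, although the ranges of both pairs overlapped across libraries. Cxcr4 was above Ccr7 in 4 of 6 libraries and Ccr7 above Ackr3 in 5 of 6. Ackr3 was above Gpr183 in 4 of 6 and Gpr183 above S1pr4 in 3 of 6, so the lower part of the order is not separated by the spread between libraries. From S1pr4 down to Ccr6 the ranges were apart. Among all tested genes, 87.4% had a lower mean level than S1pr1, 84.4% than Cxcr5, 74.7% than Cxcr4 and 60.8% than S1pr4.

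None of the 7 receptors that passed the filter on low counts passed the test of CK1i against CTRL. The count called was 0 of 7, the adjusted p of edgeR was 1.00 for each, and unadjusted p ran from 0.196 for Cxcr5 to 0.863 for Gpr183. The fitted fold change was positive for 2 and negative for 5, with a median log2 fold change of -0.12. Over all tested genes 48.9% were positive and the median was -0.0052. In 0 of the 7 were the groups apart, against 9.70% of all tested genes. A p that misses the threshold does not show equal levels, and the 95% intervals give the sizes that the data leave possible: they ran from -0.80 to 0.68 on the log2 scale over the 7 genes. In sorted bulk cells, fewer cells with a receptor and less RNA per cell cannot be told apart.

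**Figure D2:**
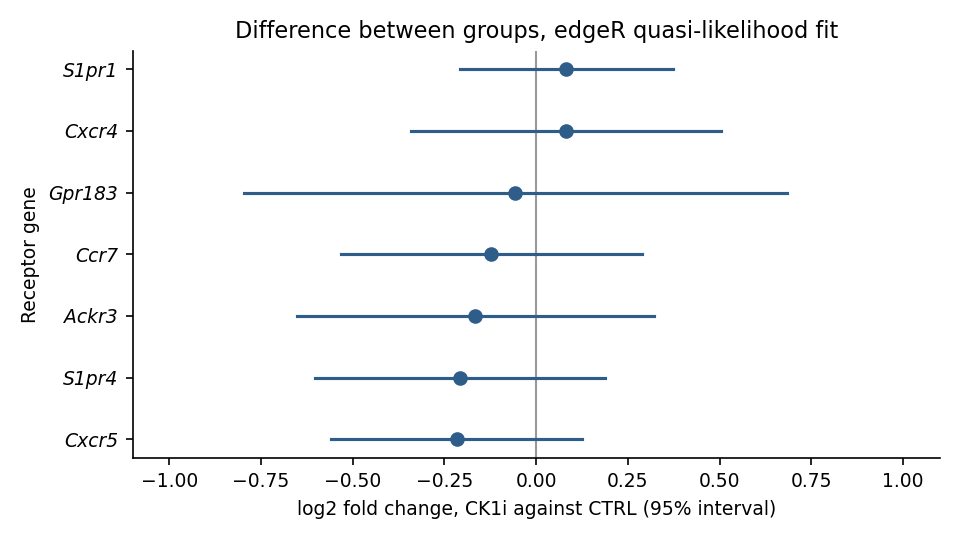
Fitted log2 fold change of CK1i against CTRL (points) with its 95% interval (lines) for the 7 receptor genes that passed the filter on low counts. Every interval crosses 0, and that of Gpr183 is the widest, from -0.80 to 0.68.

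Cxcr4 (ENSMUSG00000045382, chr1:128588199-128592293, minus strand), the receptor for CXCL12, was measured at 117, 67.5 and 75 CPM in CK1i and at 75.6, 92.2 and 78.5 CPM in CTRL. CK1i replicate 1 was the highest of the 6 and CK1i replicate 2 the lowest, so the CTRL values lie inside the range of the treated group. The means were 86.7 ± 26.9 and 82.1 ± 8.88 CPM (SD, n = 3 each), and the log2 fold change was 0.08 ± 0.20 (SE; 95% interval -0.34 to 0.50). That interval spans 0.79 to 1.42 of the CTRL level. The sign rested on a single library: without CK1i replicate 1 the log2 fold change was -0.21.

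Ackr3 (ENSMUSG00000044337, chr1:90203980-90216751, plus strand) encodes the receptor that takes up CXCL12 and removes it, and it marks marginal zone B cells among normal B cells. Its levels were 74.0, 38.8 and 52.9 CPM in CK1i and 68.9, 48.3 and 68.4 CPM in CTRL. The highest and the lowest library were both treated ones. Its log2 fold change was -0.17 ± 0.22 (SE; 95% interval -0.65 to 0.32). Without CK1i replicate 1 it was -0.44, and edgeR's adjusted p was 0.976 (unadjusted 0.060). Without CK1i replicate 2 it was 0.04.

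Cxcr5 (ENSMUSG00000047880, chr9:44511787-44561877, minus strand), the follicle-homing receptor for CXCL13, had the smallest unadjusted p of the tested members. The CK1i libraries held 138, 123 and 98.7 CPM and the CTRL libraries 117, 152 and 149 CPM. The 2 highest values were CTRL replicates 2 and 3, but CTRL replicate 1 was below 2 of the treated libraries, so the groups overlap. The means were 119.6 ± 19.6 and 139 ± 19.5 CPM (SD, n = 3 each). The log2 fold change was -0.22 ± 0.16 (SE; 95% interval -0.56 to 0.13), with an adjusted p of 1.00 in edgeR, and it stayed negative when each library was left out in turn (-0.33 to -0.10). The annotated span of the gene overlaps that of Bcl9l on the opposite strand, which had 96 to 182 counts per library. The sources used here do not give the strand setting of the counting, and whether reads of the pair were mixed was not tested.

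Ccr7 (ENSMUSG00000037944, chr11:99144196-99155077, minus strand), the receptor for CCL19 and CCL21 that leads to the T-cell zone, was at 80.6, 72.1 and 54.9 CPM in CK1i and at 57.9, 75.8 and 92.8 CPM in CTRL. The highest library was CTRL replicate 3 and the lowest CK1i replicate 3, with CTRL replicate 1 close to the latter. On the log2 scale the fold change was -0.12 ± 0.19 (SE; 95% interval -0.53 to 0.29). It turned to 0.01 when CK1i replicate 3 was left out and to 0.06 when CTRL replicate 3 was.

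Ccr6 and Cxcr3 did not pass the filter and have no test of their own in that fit. Ccr6 (ENSMUSG00000040899, chr17:8236043-8257141, plus strand), the receptor for CCL20, had 10, 5 and 5 counts in CK1i and 6, 1 and 5 in CTRL. Summed over each group that is 2.32 CPM in CK1i (exact Poisson 95% interval 1.42 to 3.58) and 1.43 CPM in CTRL (0.738 to 2.5), intervals that overlap and cover counting error only. Without the filter its log2 fold change was 0.68 ± 0.64 (SE), with an edgeR adjusted p of 0.830. Cxcr3 (ENSMUSG00000050232, chrX:101731535-101734269, minus strand), the receptor for the interferon-induced chemokines CXCL9, CXCL10 and CXCL11, had 2, 2 and 0 counts in CK1i and 0 in each CTRL library. The 4 counts amount to 0.464 CPM (exact Poisson 95% interval 0.126 to 1.19), and the 0 counts in CTRL allow up to 0.439 CPM by the same interval (0.357 CPM by the floor of 3 counts). These intervals overlap, and so few counts cannot settle a difference. Without the filter the log2 fold change of Cxcr3 was 3.51 ± 1.91 (SE), with an edgeR adjusted p of 0.830 (unadjusted 0.066).

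Among the lipid receptors, S1pr1 (ENSMUSG00000045092, chr3:115710433-115715072, minus strand), which drives egress towards S1P, varied least of all members. Its levels were 172, 157 and 151 CPM in CK1i and 137, 162 and 154 CPM in CTRL. The highest value was 1.25 times the lowest, and the coefficient of variation over the 6 libraries was 7.47%, against 15.9% to 33.0% for the other tested members. The means were 159.8 ± 11 and 151 ± 12.5 CPM (SD, n = 3 each). The fitted log2 fold change was 0.08 ± 0.14 (SE; 95% interval -0.21 to 0.37), or 0.87 to 1.29 of the CTRL level, the narrowest interval of the 7.

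S1pr4 (ENSMUSG00000044199, chr10:81497747-81500132, minus strand), an S1P receptor of blood cells, was at 50.0, 51.5 and 43.3 CPM in CK1i and at 58.9, 67.5 and 41.7 CPM in CTRL. CTRL held both the highest and the lowest library. The log2 fold change was -0.21 ± 0.18 (SE; 95% interval -0.60 to 0.19), and it stayed negative when each library was left out in turn (-0.38 to -0.06). The lowest of these values, -0.38, came without CTRL replicate 3. There edgeR's unadjusted p was 0.039, and the adjusted p did not pass the threshold.

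Gpr183 (ENSMUSG00000051212, chr14:121952551-121965195, minus strand), which places B cells at the outer follicle, varied most of the tested members, with a coefficient of variation of 33.0% and a highest library 2.44 times the lowest. It was at 88.2, 46.3 and 36.1 CPM in CK1i and at 67.8, 45.1 and 65.1 CPM in CTRL. Both extremes were treated libraries. The log2 fold change was -0.06 ± 0.32 (SE; 95% interval -0.80 to 0.68). Without CK1i replicate 1 it was -0.53, with an edgeR adjusted p of 0.911 (unadjusted 0.030), and without CK1i replicate 3 it was 0.17. The annotated span of Gpr183 overlaps that of Ubac2 on the opposite strand, which had 136 to 204 counts per library. Whether reads of that pair were mixed was not tested either.

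The balance of receptors within a library was compared as 3 log2 ratios with exact two-sided permutation tests, which cannot go below p = 0.1 with 3 libraries against 3. The log2 ratio of Cxcr4 to S1pr1, a retention receptor over an egress receptor, was -0.55, -1.21 and -1.01 in CK1i and -0.86, -0.81 and -0.97 in CTRL. The difference of -0.04 had an exact permutation p of 0.9 (0.9 adjusted over the 3 ratios). The log2 ratio of Cxcr5 to Ccr7, follicle over T-cell zone, was 0.77, 0.77 and 0.84 in CK1i and 1.01, 1.00 and 0.68 in CTRL, a difference of -0.11 with an exact permutation p of 0.4 (adjusted 0.9). The log2 ratio of Gpr183 to Cxcr5, outer follicle over follicle, was -0.64, -1.40 and -1.45 in CK1i and -0.78, -1.75 and -1.19 in CTRL, a difference of 0.08 with an exact permutation p of 0.9 (adjusted 0.9). For each of the 3 ratios the groups overlapped, and Cxcr5 exceeded Ccr7 in all 6 libraries.

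Some of the spread was shared between receptors within single libraries. CK1i replicate 1 stood 0.66 above the mean of the 6 libraries for Gpr183, 0.50 for Cxcr4 and 0.37 for Ackr3, in log2 CPM. The same library was highest for a score of 10 immediate early and heat shock genes that respond quickly to tissue handling (Fos, Fosb, Jun, Junb, Egr1, Dusp1, Ier2, Atf3, Hspa1a and Hspa1b). Their mean log2 CPM was 9.75, 8.17 and 8.12 in CK1i and 9.22, 7.70 and 8.65 in CTRL, so the score overlapped between the groups and the highest and lowest library came from different groups.

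**Figure D3:**
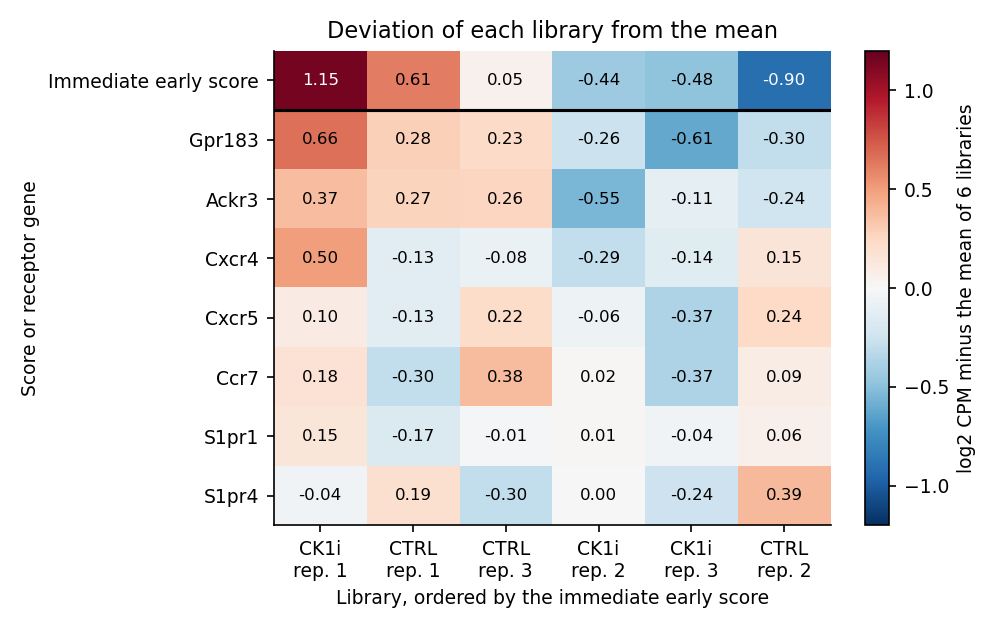
Deviation of each library from the mean of the 6 libraries, in log2 CPM, for the immediate early score (top row) and the 7 tested receptor genes, with libraries ordered by the score from left to right. Gpr183 and Ackr3 are above their means in the 3 libraries with the higher scores and below them in the 3 with the lower scores, while Cxcr5, Ccr7, S1pr1 and S1pr4 do not follow that split.

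The heatmap of deviations shows which receptors moved with that score. Across the 6 libraries, which share their depth and scaling with the score, Gpr183 had a Pearson r of 0.902 with it (Spearman rho 0.943) and Ackr3 an r of 0.806 (rho 0.829). Without the 2 libraries farthest from the median score, CK1i replicate 1 and CTRL replicate 1, r was 0.666 for Gpr183 and 0.608 for Ackr3. Cxcr4 had an r of 0.505 that became -0.486 without those 2 libraries. It was -0.373 without CK1i replicate 1 alone, so the positive r rested on that library. For Ccr7, S1pr1, Cxcr5 and S1pr4 r was 0.119, 0.050, 0.039 and -0.176 over the 6 libraries, and 0.441, -0.665, 0.030 and -0.864 without those 2. The value for S1pr1 rested on CK1i replicate 1, without which alone r was -0.901. With the score as a covariate in edgeR, chosen after the data were seen, the log2 fold change was -0.22 for Gpr183, -0.25 for Ackr3 and 0.01 for Cxcr4, and 0 members passed the threshold. That fit tests the groups and not the score, so the part of handling in these levels was not tested.

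The receptors varied together only in part. Over the 21 pairs of tested members, r across the 6 libraries ran from -0.230 to 0.888 with a median of 0.393, and 16 pairs were above 0. The closest pair was Cxcr5 and Ccr7 (r 0.888, rho 0.829, and 0.885 without CK1i replicate 1). Ackr3 and Gpr183 had an r of 0.782. Cxcr4 and S1pr1 had an r of 0.716, which was 0.355 without CK1i replicate 1.

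The genes whose pattern over the 6 libraries was most like each receptor were sought among 6515 tested genes with a mean of at least 20 CPM. With so few libraries a high r is easy to reach, and 21 to 174 genes per receptor had an r of 0.9 or more. For Cxcr5 the closest was Tcf3 (r 0.991), a transcription factor of B-cell development, followed by Pih1d1 and Rinl (both 0.990). For Ccr7 they were Cox14 (0.996), Spr (0.995) and Pmf1 (0.992), and for Cxcr4 Ccdc115 (0.971), Haus2 (0.965) and Nxt1 (0.965). For Ackr3 they were Zfp703 (0.997), Fam204a (0.992) and Otud1 (0.980). Gpr183 was most like Trim8 (0.986), Klf6 (0.985) and Rhob (0.983), of which Klf6 ranged from 256 to 1373 CPM and Rhob from 120 to 381 CPM. For S1pr1 they were Hint1 (0.990), Akr1a1 (0.987) and Suclg1 (0.982), and for S1pr4 Atg2b (0.981), Wdr61 (0.967) and Gtf2i (0.965).

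Chemokine ligands of these receptors had few or no counts in the sorted cells. Of 9 listed, 6 had 0 counts in all libraries, namely Cxcl12, Cxcl13, Ccl19, Ccl21a, Ccl20 and Cxcl11, which allows up to 0.176 CPM each over the 6 libraries together. Mif, a cytokine that also binds CXCR4, was the 1 ligand that passed the filter, at 37.5 ± 2.14 CPM (SD, n = 3) after the inhibitor and 35.1 ± 10.6 CPM (SD, n = 3) after vehicle, with a log2 fold change of 0.10 ± 0.21 (SE). Of 13 genes that make, move or break down S1P and oxysterols, 5 were tested, 4 with a positive and 1 with a negative fold change, and 0 passed. The oxysterol enzymes Ch25h, Cyp7b1, Hsd3b7 and Cyp27a1 and the S1P genes Sphk1 and Sgpp2 had 0 counts in all libraries. Sgpl1, the S1P lyase, was plentiful at 367 ± 25.5 against 404 ± 96.4 CPM (CK1i against CTRL, SD, n = 3 each). Plpp3, a lipid phosphatase, had a log2 fold change of 0.22 ± 0.20, and Spns2, a scarce S1P exporter at 3.93 ± 0.316 against 2.61 ± 1.18 CPM (SD, n = 3 each), of 0.57 ± 0.44 (SE).

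The wider set of migration genes also held no gene that passed. Across the ligand, metabolism, receptor, regulator and transducer lists, 58 of 93 genes were tested, 0 were called, and the smallest edgeR adjusted p was 0.761. An unadjusted p under 0.05 was reached by 7 of the 58 (12.1%, against 4.64% of all tested genes). Of the 58, 6 were so and higher in CK1i, where the background is 2.65%, and 1 was lower, where it is 1.99%. The groups were apart for 9 of the 58 (15.5%, against 9.70%). The lists were chosen with earlier results of these data known, so these shares are no test of the pathways. The median log2 fold change was 0.07, with 37 positive and 21 negative.

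**Figure D4:**
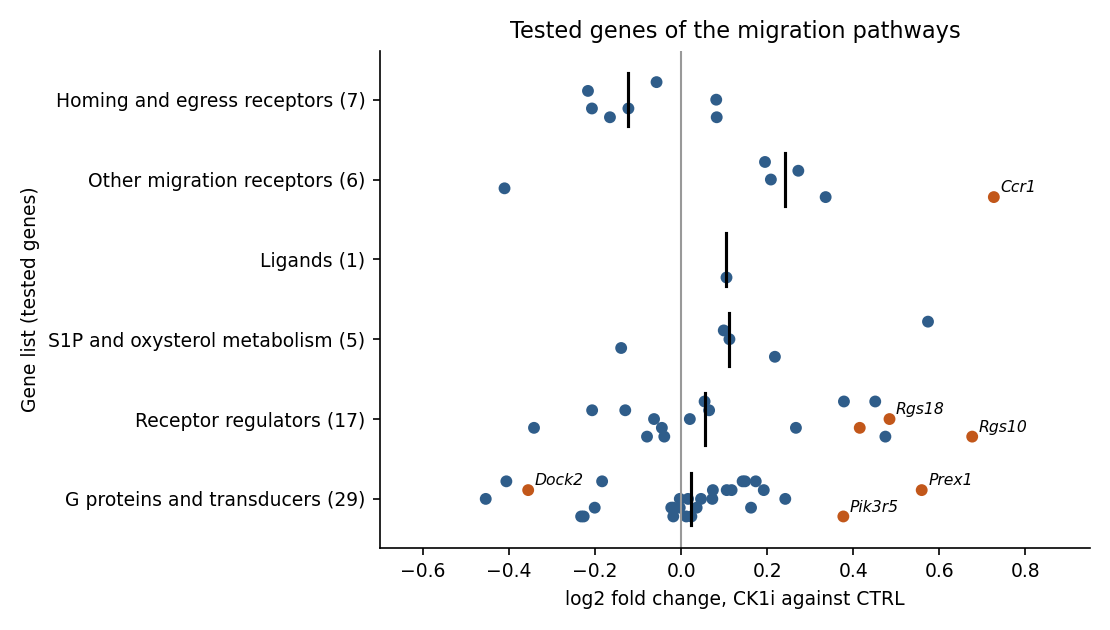
Log2 fold change of CK1i against CTRL for every tested gene of the 6 lists, with the number of tested genes in brackets and the list's median as a black bar. Orange points, most of which carry names, have an unadjusted p under 0.05 in edgeR, and 0 genes passed the adjusted threshold.

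The plot of pathway genes shows Ccr1 at the far right among the other receptors. Ccr1, a receptor for inflammatory chemokines such as CCL3 and CCL5, was at 24.7, 39.8 and 34.1 CPM in CK1i and at 18.1, 19.96 and 21.4 CPM in CTRL, so the groups did not overlap. Its log2 fold change was 0.73 ± 0.21 (SE; edgeR unadjusted p 0.00406, adjusted 0.802). In that list 6 of 22 genes were tested, 5 positive and 1 negative, with a median of 0.24. Ccr2 had a log2 fold change of -0.41 ± 0.24 with a single high library, CTRL replicate 1 at 38.3 CPM, and of -0.06 without that library. Cnr2, the cannabinoid receptor of B cells, had a log2 fold change of 0.27 ± 0.21 (SE). Ccr9 and Gpr18 were abundant, at 44.9 to 101 CPM and 77.4 to 120.0 CPM over the 6 libraries, a level like that of the homing receptors themselves.

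Regulators of the receptors numbered 17 tested of 19, 10 positive and 7 negative, with a median log2 fold change of 0.05 and 0 called. Klf2, a transcription factor that switches on S1pr1 in T cells, was at 2783, 1049 and 1104 CPM in CK1i and at 2005, 1287 and 2111 CPM in CTRL. Cd69, which pulls S1PR1 off the cell surface, was at 553, 127 and 156 CPM in CK1i and at 383, 189 and 303 CPM in CTRL. Both were highest in CK1i replicate 1, with log2 fold changes of -0.13 ± 0.42 and -0.06 ± 0.70 (SE). Across the 6 libraries Klf2 had an r of 0.881 with the immediate early score and Cd69 of 0.902. Without CK1i replicate 1 and CTRL replicate 1 these were 0.665 and 0.547. Of the other genes set against the score, r over the 6 libraries was 0.916 for Gna13, 0.820 for Rgs1, 0.703 for Gnai2 and 0.169 for Foxo1. Foxo1, a transcription factor for Ccr7 and S1pr1 in lymphocytes, varied little, at 363 ± 21 against 349.7 ± 16.6 CPM (CK1i against CTRL, SD, n = 3 each; log2 fold change 0.05 ± 0.13, SE).

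Of the 17 tested genes of that list the groups were apart for 4, 3 higher and 1 lower in CK1i, where 9.70% of all tested genes were apart. Among the higher ones were the regulators of G protein signalling Rgs10 and Rgs18. They were at 20.05 ± 2.97 against 12.6 ± 3.94 CPM and at 19.5 ± 0.568 against 13.8 ± 1.86 CPM (CK1i against CTRL, SD, n = 3 each). Their edgeR adjusted p-values were 0.958 and 1.00. Rgs1, which dampens chemokine receptor signals in B cells, ranged from 1.96 to 31.9 CPM within CK1i alone, with a log2 fold change of 0.45 ± 1.00 (SE).

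Of 30 G protein and transducer genes, 29 were tested, 17 positive and 12 negative, with a median log2 fold change of 0.02 and 0 called. Gnai2, the main inhibitory G protein of chemokine receptors, was at 782 ± 86.1 against 744 ± 34.9 CPM (CK1i against CTRL, SD, n = 3 each). Gna13, which restrains B-cell migration, was at 240.1 ± 37.7 and 214 ± 25.4 CPM (SD, n = 3 each). Neither was called and the groups overlapped for both, with log2 fold changes of 0.07 ± 0.15 and 0.16 ± 0.15 (SE).

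Prex1, an exchange factor that turns chemokine receptor signals into Rac activity, was at 75.3, 79.9 and 60.2 CPM in CK1i and at 48.6, 49.1 and 48.7 CPM in CTRL. The groups did not overlap and the CTRL values were very close together. Its log2 fold change was 0.56 ± 0.15 (SE), with an edgeR unadjusted p of 0.00275 and adjusted p of 0.761. Dock2, the Rac activator needed for lymphocyte migration, was at 661, 702 and 672 CPM in CK1i and at 933, 724 and 947 CPM in CTRL. Here every control library was above every treated one, with a log2 fold change of -0.36 ± 0.15 (SE; edgeR unadjusted p 0.0343, adjusted 1.00). Pik3r5, a subunit of the PI3K gamma complex, had a log2 fold change of 0.38 ± 0.17 (SE; edgeR unadjusted p 0.0452, adjusted 1.00), and its groups overlapped. Beside these, 6 of 6 tested glucocorticoid-responsive genes had a negative fold change, with a median of -0.40, overlapping groups and 0 called, and their part in the receptor levels was not tested.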

How the data were processed

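The authors deposited whole-number counts per gene for 6 sorted CLL-cell libraries (3 CK1i, 3 CTRL), with 0 columns of no sample and 0 rows that name no gene. Libraries were made with a 3′ forward kit with UMIs, per the labels' protocols. Build GRCm38.p6, STAR 2.7.3a, featureCounts 1.6.3, UMI-tools 1.1.1, Picard 2.18.27 and Trimmomatic 0.36 are among the names in the submitters' processing notes, without role or order; the strand setting and whether UMIs were collapsed are not given in the sources used here, so intervals and floors of 3 counts cover counting error only.

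The whole table was fitted in R 4.3.3 with edgeR 4.0.16: filterByExpr (minimum count 10, minimum total 15; 10067 genes kept), TMM factors (0.982 to 1.02), the robust quasi-likelihood F test, Benjamini-Hochberg adjustment over all tested genes, threshold 0.05, two-sided. Levels are TMM-scaled CPM, with 2 as the prior count for log2 CPM. Ratios used a pseudocount of 0.5 counts. Coordinates and sequences come from GENCODE M21 on GRCm38. Alternatives were DESeq2 1.42.0, limma-voom 3.58.1, other scalings and filters, and leaving out each library. The edgeR step was tested on simulated counts.

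Members and gene lists were chosen with earlier results of these data known. Genes named from a list are its calls or, with 0 calls, at most 3 of the lowest p-values, with Klf2, Cd69, Foxo1, Gnai2, Gna13 and Rgs1 always named; genes named outside that rule (Ccr9, Gpr18, Lck, Cd3e, Cd79a, Cd79b and Jchain, and those at 0 counts) were chosen after their values were seen. Some genes that the rule names are not reported here.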

Additional observations from a re-analysis of the deposited data

How the results depend on the processing

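Over 13 alternative settings, 0 members were called, and the smallest adjusted p of a member was 0.830; 83 of 91 fold changes kept their sign. Over all genes, the calls went from 0 to 76 without the filter, 8 with DESeq2, 3 with the handling score as a covariate (chosen after seeing the data), and 0 to 1 leaving out a library. No result named here passed the threshold, so the signs below are those of differences that were not called. For some of these genes, Prex1 and Ccr1 among them, the groups did not overlap. Leaving out 1 library in turn gave log2 fold changes of -0.21 to 0.23 for Cxcr4 (negative without CK1i replicate 1), -0.29 to 0.06 for Ccr7 (0.0083 and 0.0578 without CK1i or CTRL replicate 3), -0.44 to 0.04 for Ackr3 (0.0351 without CK1i replicate 2) and -0.53 to 0.17 for Gpr183 (0.0714, 0.1698, 0.0453 and 0.0158 without CK1i replicates 2 and 3 and CTRL replicates 1 and 3). Among 19 pathway genes that the naming rule picks, put through the same settings after seeing the data, 235 of 246 values kept their sign, and the smallest adjusted p was 0.143. The ranges that crossed 0 were -0.09 to 0.34 for Mif (-0.087 without CTRL replicate 1), -0.29 to 0.06 for Sgpl1 (0.0619 without CTRL replicate 3), -0.74 to 0.11 for Klf2, -1.05 to 0.28 for Cd69 and -1.14 to 0.97 for Rgs1, which was also -0.27 with limma-voom and -0.16 with the covariate. The lowest values of Klf2, Cd69 and Rgs1 came without CK1i replicate 1. There edgeR's unadjusted p was 0.0052 for Klf2 and 0.0028 for Cd69 (adjusted 0.624 and 0.490). For Klf2 as for Cd69, 3 of the 13 settings gave a positive value. The difference in log2 ratio ran from -0.23 to 0.10 for Cxcr4 to S1pr1 and from -0.18 to 0.31 for Gpr183 to Cxcr5. The cause of these shifts was not tested. No paired analysis was possible because the labels give no replicate numbers shared between the groups. With 3 libraries a group, log2 fold changes had a median SE of 0.20, and Ccr6 and Cxcr3, with 32 and 4 counts in all, are limited by depth.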
